A study of Mus musculus with 48 samples.

Results

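The transcriptional repressors DEC1, DEC2 and CHRONO are encoded by *Bhlhe40*, *Bhlhe41* and *Ciart*, and these 3 genes were taken by gene name from the 56748 genes of the deposited expression table, where each name matched 1 gene. *Bhlhe40* (ENSMUSG00000030103) lies on chromosome 6 from 108637590 to 108643886 on the plus strand in mm39, with 4705 exonic bases. *Bhlhe41* (ENSMUSG00000030256) lies on chromosome 6 from 145803969 to 145811284 on the minus strand, with 6720 exonic bases. *Ciart* (ENSMUSG00000038550) lies on chromosome 3 from 95785815 to 95789563 on the minus strand, with 2261 exonic bases. All 3 genes passed the filter on low counts, with 1136 to 2831 reads per library for *Bhlhe40*, 719 to 1894 for *Bhlhe41* and 9 to 225 for *Ciart*, so the *Ciart* values carry the largest counting error.

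In the molecular clock, BMAL1 (encoded by *Arntl*) and CLOCK bind E-box sequences and switch on the genes of their own repressors, which then shut that transcription down. PER and CRY proteins form the main negative arm. DEC1 and DEC2 are basic helix-loop-helix proteins with an Orange domain that compete for the same E-boxes, and CHRONO is a separate repressor that binds BMAL1, so the 3 genes are both targets and brakes of the activators. DEC1 also responds to hypoxia and other stresses, and DEC2 is known in people for its link to short sleep.

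The libraries were RNA-seq of tibialis anterior muscle from 48 male mice aged 39 to 55 weeks, with 2 mice in each of 24 groups. WT mice carry the strain label C57BL/6J in the sample records, while the series text describes them as floxed mice without Cre; FoxP1SkmKO mice were Foxp1fl/fl; Acta1-cre, in which the skeletal muscle actin promoter drives Cre, so deletion is aimed at muscle fibers and other cells of the muscle keep the gene. KPC mice had received murine pancreatic cancer cells of the KPC line in the pancreas and control mice sterile PBS, and all mice were kept in constant darkness before collection. Muscles were taken at circadian time (CT, hours since CT0) 18, 22, 26, 30, 34, and 38, of which CT18, CT22, and CT38 fall in the subjective night, when mice are active, and CT26, CT30, and CT34 in the subjective day.

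The libraries held 14480867 to 20787784 counted reads on genes (median 16602091). *Foxp1* itself did not separate the genotypes at the level of the whole gene, with 0.430 to 0.971 FPKM (fragments per kilobase of exons, scaled to the total of the library) in WT control, 0.454 to 0.757 in WT KPC, 0.430 to 0.642 in FoxP1SkmKO control, and 0.419 to 0.653 in FoxP1SkmKO KPC mice. Its genotype effect was -0.11 ± 0.070 (log2 fold change ± SE, adjusted p = 0.459, edgeR) in control and -0.20 ± 0.071 (adjusted p = 0.246) in KPC mice. The count covers all exons and the deleted part was not examined, so genotypes are given as labelled. The 7 muscle fiber markers were present in every library and together took 126870 to 157188 CPM (reads scaled to the library total but not to gene length). Of the other cell types, the 5 neutrophil markers summed to between 0.127 and 11.2 CPM, the 6 T cell markers to between 0.332 and 5.15, the 3 liver markers to between 0 and 301, the 5 adipocyte markers to a median of 10.7, and the 3 satellite cell markers to between 2.95 and 7.01, with some of them at 0 in some libraries. The 9 macrophage markers summed to between 23.1 and 138 CPM, the 6 endothelial markers to between 297 and 508, and the 5 fibroblast markers to between 101 and 562, with none at 0.

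Of the 3 promoters, 2 were matched in RefSeq (GRCm38.p6), those of *Ciart* and *Bhlhe41*, and they are shown because the E-box is the sequence through which the activators of the clock reach these genes. Each line gives the 250 bases before the start of the gene, read 5′ to 3′ on the strand of the gene, with every CACGTG E-box in capitals. The first window is chr3:95882229-95882478 on the minus strand and the second chr6:145865421-145865670 on the minus strand.
Ciart: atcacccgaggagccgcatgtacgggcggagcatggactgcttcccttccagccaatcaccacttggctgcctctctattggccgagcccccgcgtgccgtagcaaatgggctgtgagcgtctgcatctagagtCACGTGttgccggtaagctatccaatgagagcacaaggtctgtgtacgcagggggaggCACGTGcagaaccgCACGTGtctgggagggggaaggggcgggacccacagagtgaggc
Bhlhe41: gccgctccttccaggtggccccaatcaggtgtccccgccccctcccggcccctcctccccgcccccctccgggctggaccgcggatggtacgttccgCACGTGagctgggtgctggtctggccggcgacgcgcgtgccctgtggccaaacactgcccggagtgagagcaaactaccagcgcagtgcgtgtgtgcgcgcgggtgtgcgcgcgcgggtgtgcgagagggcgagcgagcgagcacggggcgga
The *Ciart* window held 3 E-boxes, starting 116, 58, and 44 bases before the gene, and the *Bhlhe41* window held 1, starting 153 bases before it. CACGTG, which reads the same on both strands, was present in 6.02% of the 32851 promoter windows of that length. The looser core CANNTG, which contains CACGTG, matched 5 times in *Ciart* and 3 times in *Bhlhe41* and was present in 66.2% of all windows. The hypoxia core ACGTG, searched on both strands and contained in every CACGTG, matched only inside these E-boxes in both windows and was present in 16.6% of all. The E-prime box CACGTT (3.85% of all windows), the D-box TTANNTAA (5.43%), the nuclear receptor motif AGGTCA (14.0%), and the forkhead motif TGTTTAC (3.17%) had no match in either window. These windows were rich in G and C, at 62.0% in *Ciart* and 73.6% in *Bhlhe41* against a median of 52.4%.

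Per length, *Bhlhe40* was the most abundant of the repressors and *Ciart* the least, and this order held in 48 of 48 libraries. *Bhlhe40* ran from 14.3 to 35.7 FPKM with a median of 23.6, *Bhlhe41* from 6.63 to 17.3 with a median of 12.0, and *Ciart* from 0.215 to 6.13 with a median of 0.808. The ratio of *Bhlhe40* to *Bhlhe41* within a library had a median of 2.00 and a range of 1.11 to 3.64. The ratio of *Bhlhe41* to *Ciart* had a median of 12.6 and a far wider range, 2.32 to 70.8.

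**Figure D1:**
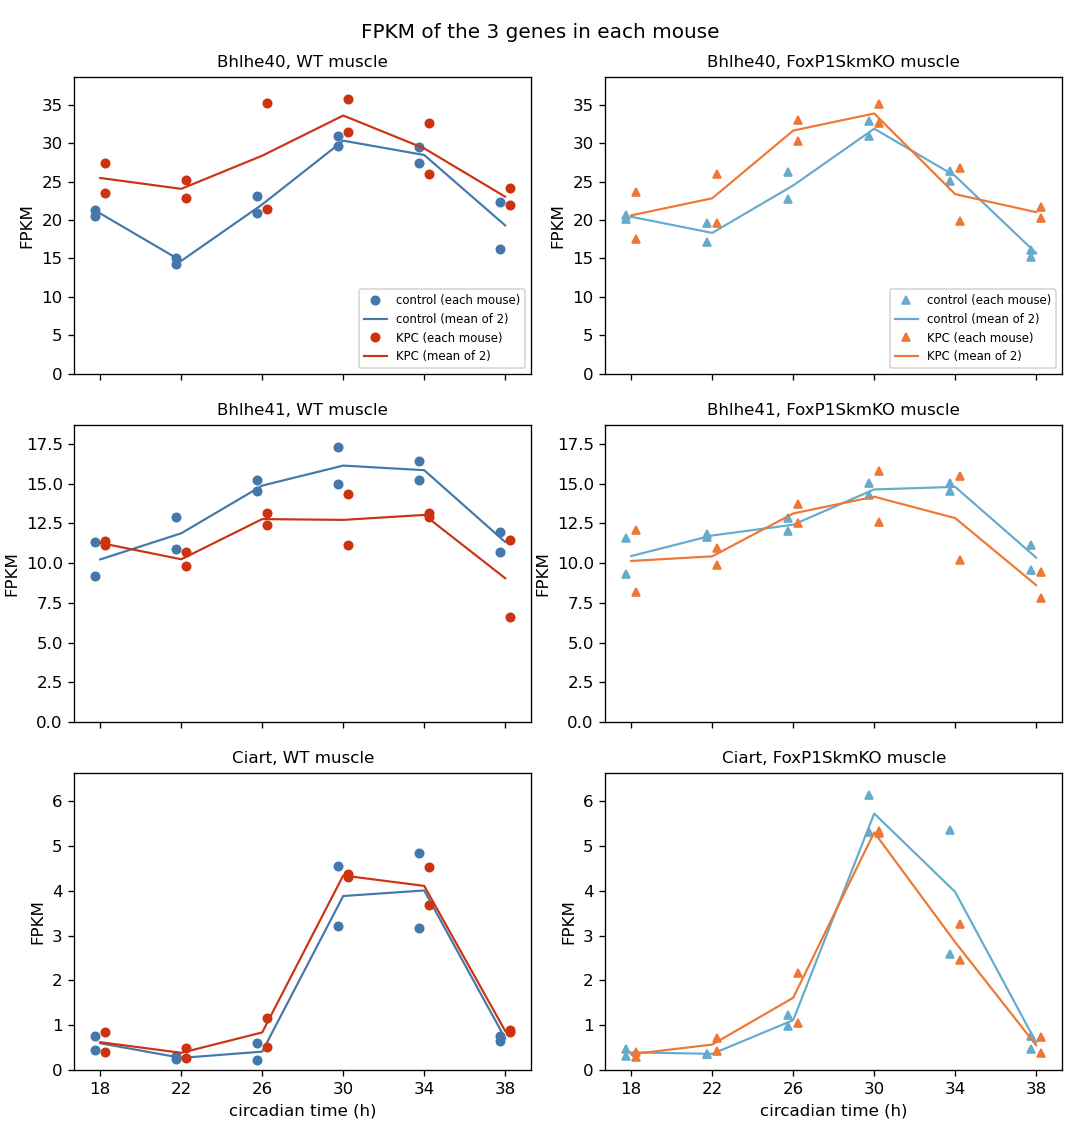
FPKM (vertical axis) of *Bhlhe40*, *Bhlhe41*, and *Ciart* against circadian time in hours, with WT mice on the left and FoxP1SkmKO mice on the right. Each point is a mouse and each line joins the means of 2 mice; *Ciart* is low at night and peaks at CT30 or CT34 in all 4 groups, while *Bhlhe40* in WT KPC mice stays at or above 21.5 FPKM at every time.

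*Ciart* had the deepest daily swing. In WT control mice the pairs of mice measured 0.448 and 0.749 FPKM at CT18, 0.236 and 0.307 at CT22, 0.215 and 0.608 at CT26, 3.22 and 4.55 at CT30, 3.17 and 4.85 at CT34, and 0.654 and 0.756 at CT38. The highest mean, at CT34, was 14.8 times the lowest, at CT22. WT KPC mice measured 0.399 and 0.845 at CT18, 0.269 and 0.501 at CT22, 0.516 and 1.17 at CT26, 4.30 and 4.39 at CT30, 3.68 and 4.54 at CT34, and 0.850 and 0.897 at CT38. The means spanned 11.3-fold, with the lowest at CT22 and the highest at CT30. In FoxP1SkmKO control mice the level went from 0.361 and 0.363 at CT22 to 5.32 and 6.13 at CT30, and the means spanned 15.8-fold. In FoxP1SkmKO KPC mice it went from 0.294 and 0.413 at CT18 to 5.29 and 5.33 at CT30, and the means spanned 15.0-fold. At CT34 the FoxP1SkmKO control mice were far apart, at 2.59 and 5.36.

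In control muscle the highest *Bhlhe40* mean of the 6 times was about 2-fold the lowest. WT control mice measured 20.5 and 21.2 FPKM at CT18, 14.3 and 15.0 at CT22, 20.9 and 23.1 at CT26, 29.7 and 31.0 at CT30, 27.4 and 29.5 at CT34, and 16.2 and 22.4 at CT38. The trough was at CT22 and the top at CT30, a ratio of means of 2.06. FoxP1SkmKO control mice measured 20.2 and 20.7 at CT18, 17.1 and 19.6 at CT22, 22.8 and 26.2 at CT26, 30.9 and 32.8 at CT30, 25.1 and 26.4 at CT34, and 15.2 and 16.1 at CT38, with a ratio of 2.03. In KPC mice the ratio of the highest to the lowest mean was smaller, 1.46 in WT and 1.64 in FoxP1SkmKO, and CT30 stayed the highest time in both. The narrower span in WT KPC mice came with a higher low end, since their lowest mean was 23.0 FPKM against 14.7 in WT control mice.

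*Bhlhe41* had the smallest span over the day of the 3 genes in 3 of the 4 groups, the exception being FoxP1SkmKO KPC mice, where *Bhlhe40* spanned 1.64-fold. WT control mice measured 9.16 and 11.3 FPKM at CT18, 10.9 and 12.9 at CT22, 14.5 and 15.2 at CT26, 15.0 and 17.3 at CT30, 15.2 and 16.4 at CT34, and 10.7 and 12.0 at CT38. The means spanned 1.58-fold, with the lowest at CT18 and the highest at CT30. The span was 1.44-fold in WT KPC, 1.43-fold in FoxP1SkmKO control, and 1.65-fold in FoxP1SkmKO KPC mice. In the 2 WT KPC mice at CT38 the level was 6.63 and 11.5, the widest gap between mice of a pair in that group.

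Whether levels differed between the 6 times was tested on counts with edgeR in each genotype and condition, with p-values adjusted by Benjamini-Hochberg over 15637 genes. *Ciart* passed in all 4 groups, with adjusted p = 9.0e-09 in WT control, 8.9e-08 in WT KPC, 3.3e-09 in FoxP1SkmKO control, and 4.5e-08 in FoxP1SkmKO KPC mice. *Bhlhe40* passed in WT control (adjusted p = 2.3e-04), FoxP1SkmKO control (9.3e-04), and FoxP1SkmKO KPC mice (0.0065), and had adjusted p = 0.107 in WT KPC mice. *Bhlhe41* passed in WT control (adjusted p = 0.0198) and FoxP1SkmKO KPC mice (0.0496) and had 0.173 in WT KPC and 0.139 in FoxP1SkmKO control mice. Of all genes, 18.7% passed in WT control, 11% in WT KPC, 6.4% in FoxP1SkmKO control, and 5.99% in FoxP1SkmKO KPC mice. Markers of cell types passed too, namely 4 of 7 muscle fiber, 3 of 6 endothelial, and 1 of 9 macrophage markers in WT control mice, and 5 of 5 fibroblast, 8 of 9 macrophage, 1 of 6 endothelial, and 1 of 7 muscle fiber markers in WT KPC mice. In FoxP1SkmKO control mice 4 of 9 macrophage, 2 of 6 endothelial, and 2 of 3 liver markers passed, and in FoxP1SkmKO KPC mice 3 of 6 endothelial, 2 of 3 tested neutrophil, 3 of 3 liver, 1 of 5 fibroblast, and 1 of 7 muscle fiber markers. Their part in the member results was not tested. With DESeq2 size factors the adjusted p of *Bhlhe41* in FoxP1SkmKO KPC mice was 0.0572, and with no filter on low counts every member passed in all 4 groups. The fit with no filter called 3271 of 33218 genes in WT control, 2490 in WT KPC, 2062 in FoxP1SkmKO control, and 2005 in FoxP1SkmKO KPC mice. Several of the *Bhlhe41* and *Bhlhe40* calls turned on single mice. For *Bhlhe41* in FoxP1SkmKO KPC mice the adjusted p was between 0.0528 and 0.199 without any 1 of 8 of the 12 mice (CT18 replicate 2, both of CT22, both of CT26, CT30 replicate 1, and both of CT38), and in WT control mice it was 0.0882 without CT18 replicate 2, 0.0559 without CT26 replicate 1, and 0.0505 without CT30 replicate 2. In WT KPC mice the adjusted p was 0.0207 for *Bhlhe41* without CT38 replicate 1, and for *Bhlhe40* 0.0269 without CT26 replicate 1 and 0.0187 without CT26 replicate 2.

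Each group of 12 mice was then fitted on FPKM with a 24 h sinusoid, with an F test on 9 residual degrees of freedom and an unadjusted p under 0.01 as the call. *Ciart* was called in all 4 groups and *Bhlhe40* in 3, while *Bhlhe41* was called in both control groups and in neither KPC group. By this rule 4.92% of all genes were called in WT control, 4.22% in WT KPC, 4.07% in FoxP1SkmKO control, and 2.63% in FoxP1SkmKO KPC mice. Some of these calls turned on 1 mouse. In FoxP1SkmKO control mice *Bhlhe40* had p = 0.0121 and 0.0117 (F test, n = 11) without CT30 replicate 1 and 2, and *Bhlhe41* 0.0136 without CT18 replicate 1 and 0.0126 without CT30 replicate 1. In FoxP1SkmKO KPC mice *Bhlhe40* had p = 0.0111 (F test, n = 11) without CT18 replicate 2 and 0.0103 and 0.0107 without CT30 replicate 1 and 2, while *Bhlhe41* was called, at 0.0093, without CT18 replicate 1. With p-values adjusted over all genes, *Bhlhe41* in WT control mice alone stayed below 0.05 among the 12 combinations of gene and group (adjusted p = 0.0434), beside 0.551%, 0.475%, 0.414%, and 0.116% of all genes in the same order of groups.

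The fitted curves gave the size and the hour of each rhythm. The amplitude of *Ciart* was 2.04 ± 0.421 FPKM (SE, n = 12) in WT control, 2.15 ± 0.357 in WT KPC, 2.62 ± 0.519 in FoxP1SkmKO control, and 2.24 ± 0.390 in FoxP1SkmKO KPC mice. These amplitudes were 115% to 129% of the basal level, the mean around which the curve swings, and in each group the mean FPKM was highest at CT30 and CT34. An amplitude above the basal level puts the fitted trough at negative FPKM, so the sinusoid did not follow the low *Ciart* values. The amplitude of *Bhlhe40* was 29.7% of its basal level in WT control, 16.4% in WT KPC, 28.7% in FoxP1SkmKO control, and 27.1% in FoxP1SkmKO KPC mice. For *Bhlhe41* the same order gave 24.1%, 13.8%, 18.3%, and 22.3%. Both DEC genes thus had their smallest relative amplitude in WT KPC mice, although no difference in amplitude passed a test, as given with the tests of the difference.

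All the fitted peaks fell in the subjective day. No rhythm was called for *Bhlhe40* or *Bhlhe41* in WT KPC mice or for *Bhlhe41* in FoxP1SkmKO KPC mice, so their hours are those of uncalled curves. *Ciart* peaked at CT32.3 ± 0.789 h (SE) in WT control, CT32.0 ± 0.635 in WT KPC, CT31.3 ± 0.756 in FoxP1SkmKO control, and CT30.6 ± 0.665 in FoxP1SkmKO KPC mice. *Bhlhe40* peaked at CT31.9 ± 0.763, CT30.0 ± 1.52, CT29.8 ± 0.781, and CT28.3 ± 0.788 in the same order, and *Bhlhe41* at CT30.1 ± 0.536, CT29.4 ± 1.74, CT30.5 ± 0.795, and CT29.1 ± 1.21. In WT control mice these hours lay between those of *Nr1d1*, which encodes the repressor REV-ERBα and peaked at CT28.5, and those of *Per1* at CT34.0 and *Per2* at CT35.4. *Arntl*, the activator, peaked earlier, at CT22.5, and *Dbp*, an output gene driven through E-boxes, at CT32.6, beside *Ciart*.

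**Figure D2:**
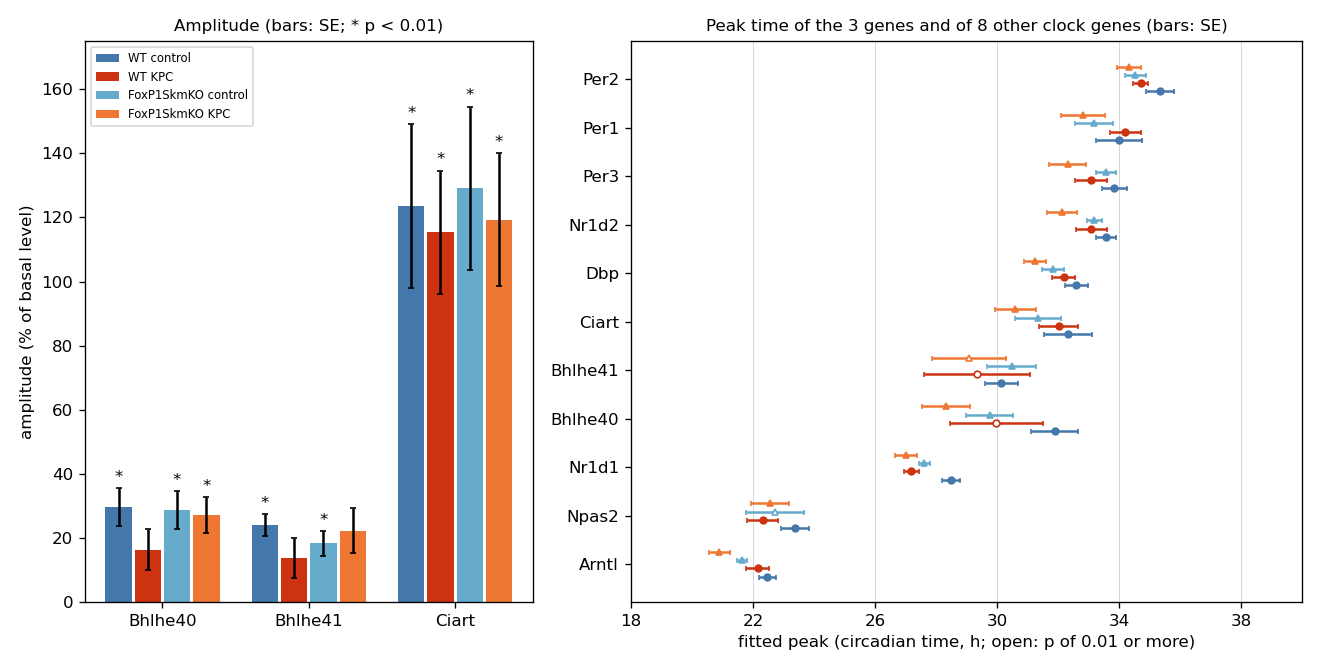
Left, amplitude of the fitted 24 h sinusoid as a percentage of the basal level for the 3 genes in each group (bars, with SE; asterisk, p under 0.01). Right, fitted peak in circadian hours with SE for the 3 genes and 8 other clock genes, with open symbols where p was 0.01 or more; *Ciart* has amplitudes of 115% to 129%, and all 3 genes peak between the *Nr1d1* and *Per2* peaks of the same group.

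The rhythms were compared between groups in a single model over 24 mice with 18 residual degrees of freedom, in 4 comparisons, and no member passed after adjustment in any. For KPC against control in WT mice the amplitude of *Bhlhe40* differed by -2.23 FPKM (95% confidence interval -6.92 to 2.45, n = 12 per group, p = 0.330, adjusted p = 0.950, F test) and that of *Bhlhe41* by -1.63 (-3.43 to 0.166, p = 0.0726, adjusted p = 0.775). That of *Ciart* differed by 0.115 (-1.04 to 1.27). These intervals still hold differences as large as the amplitudes themselves for the DEC genes, so a loss of rhythm was neither shown nor bounded tightly. In FoxP1SkmKO mice the amplitude differences were 0.383 (-3.72 to 4.49) for *Bhlhe40*, 0.303 (-1.67 to 2.28) for *Bhlhe41*, and -0.385 (-1.75 to 0.978) for *Ciart*. No gene of the whole table passed for the sinusoid terms, the amplitude, or the peak time in any of the 4 comparisons (0% each).

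The largest shift in hour was for *Bhlhe40* between the genotypes in control mice, where FoxP1SkmKO minus WT was -2.13 h on the fitted curves (-4.42 to 0.163 h, n = 12 per group, p = 0.0700, F test). No peak time of a member passed after adjustment. Point estimates of *Bhlhe40* and *Ciart* were earlier in FoxP1SkmKO than in WT mice in both conditions, and earlier in KPC than in control mice in both genotypes, with *Ciart* differences of -0.304 to -1.42 h whose intervals all included 0. The basal level, which the same model also compared, is given with the KPC effect.

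*Bhlhe40* rose in WT mice with KPC tumors. WT KPC mice measured 23.6 and 27.4 FPKM at CT18, 22.9 and 25.2 at CT22, 21.5 and 35.2 at CT26, 31.5 and 35.7 at CT30, 26.0 and 32.6 at CT34, and 21.9 and 24.1 at CT38. Set against the WT control values above, both KPC mice stood above both control mice at CT18, CT22, and CT30, and the pairs overlapped at CT26, CT34, and CT38; both mice were above at 3 or more of 6 times in 11.2% of all genes. Averaged over the 6 times, the edgeR log2 fold change was 0.30 ± 0.068 (SE; 95% interval 0.16 to 0.44; adjusted p = 0.0186), a fold of 1.23, and *Bhlhe40* was the single member among the 1.79% of genes that passed. The estimate was above 0 at 6 of 6 times, from 0.05 at CT34 to 0.70 ± 0.17 at CT22 (adjusted p = 0.490, edgeR). The WT estimate of *Ciart*, which did not pass, was also above 0 at 6 of 6 times. The share of all genes with such a count was not computed. For *Bhlhe40* an exact two-sided permutation test that relabelled mice within each time gave p = 0.00377. Its mean difference was 0.28 in log2(FPKM + 1), and the smallest p possible was 4.3e-05.

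The call in WT mice rested in part on single times and mice. Without CT22 the average was 0.22 (adjusted p = 0.126), without CT26 0.29 (adjusted p = 0.0503), without WT control CT38 replicate 2 0.26 (adjusted p = 0.0517), and without WT KPC CT38 replicate 2 0.29 (adjusted p = 0.0539). At CT26 the 2 KPC mice differed most, and that time's log2 fold change was -0.04 without WT KPC replicate 1 and 0.67 (adjusted p = 0.0260) without replicate 2. In the same comparison 2 of 3 tested neutrophil markers, *S100a8* and *S100a9*, rose, and the fibroblast markers *Col1a1* and *Col3a1* (2 of 5) and the endothelial marker *Kdr* (1 of 6) fell. Summed fibroblast markers were 167 to 562 CPM in WT control and 101 to 493 in WT KPC mice, and summed neutrophil markers 0.243 to 1.29 and 0.805 to 2.93. Their part in the *Bhlhe40* difference was not tested, and in whole muscle a change in the number of cells of a type and in the RNA per cell cannot be told apart.

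In FoxP1SkmKO mice the *Bhlhe40* estimate was smaller and did not pass. KPC mice measured 17.5 and 23.7 FPKM at CT18, 19.7 and 26.0 at CT22, 30.3 and 32.9 at CT26, 32.6 and 35.1 at CT30, 19.9 and 26.8 at CT34, and 20.3 and 21.7 at CT38. Both KPC mice stood above both control mice at CT22, CT26, and CT38, and the pairs overlapped at the other times; 9.5% of all genes had 3 or more such times. The averaged log2 fold change was 0.18 ± 0.068 (0.04 to 0.32, unadjusted p = 0.0132, adjusted p = 0.245, edgeR), while 0.428% of all genes passed. The exact permutation test gave p = 0.0421 for a mean difference of 0.16, and with no filter on low counts the adjusted p was 0.0035. That fit called 527 of 33218 genes for this effect, against 67 with the filter. The difference between the genotypes, WT minus FoxP1SkmKO, was 0.12 ± 0.096 (-0.07 to 0.32, adjusted p = 0.865), so the *Bhlhe40* effect was not shown to differ between them, and 0% of genes passed for that difference (1020 had an unadjusted p under 0.05, DESeq2 called 0, and edgeR with no filter on low counts called 104).

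*Bhlhe41*, the paralog, had estimates in the opposite direction in both genotypes and passed in neither. With no filter on low counts its adjusted p in WT mice was 1.8e-04 (edgeR). That fit called 794 of 33218 genes for this effect, against 280 with the filter, and DESeq2 did not call *Bhlhe41*. WT KPC mice measured 11.1 and 11.4 FPKM at CT18, 9.80 and 10.7 at CT22, 12.4 and 13.1 at CT26, 11.1 and 14.3 at CT30, 12.9 and 13.1 at CT34, and 6.63 and 11.5 at CT38. Both KPC mice stood below both WT control mice at CT22, CT26, CT30, and CT34, and the pairs overlapped at CT18 and CT38; 2.45% of all genes were below in this way at 4 or more times. The averaged log2 fold change was -0.21 ± 0.075 (-0.36 to -0.06, unadjusted p = 0.0092, adjusted p = 0.152, edgeR), and the exact permutation test gave p = 0.0111 for a mean difference of -0.20. The estimate was below 0 at 5 of 6 times, with CT18 at 0.13, and the share of all genes with such a count was not computed. Without WT KPC CT38 replicate 1 the average was -0.28 (adjusted p = 0.0198).

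In FoxP1SkmKO KPC mice *Bhlhe41* measured 8.16 and 12.1 FPKM at CT18, 9.87 and 10.97 at CT22, 12.5 and 13.7 at CT26, 12.6 and 15.8 at CT30, 10.2 and 15.5 at CT34, and 7.80 and 9.42 at CT38. FoxP1SkmKO control mice measured 9.32 and 11.6, 11.6 and 11.8, 12.0 and 12.8, 14.3 and 15.0, 14.5 and 15.0, and 9.55 and 11.1 at these times. KPC mice were both below at CT22 and CT38, as were 30.5% of all genes at 2 or more times. The averaged log2 fold change was -0.11 ± 0.075 (-0.26 to 0.04, adjusted p = 0.598), and the genotypes differed by -0.10 ± 0.11 (-0.32 to 0.12, adjusted p = 0.913).

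**Figure D3:**
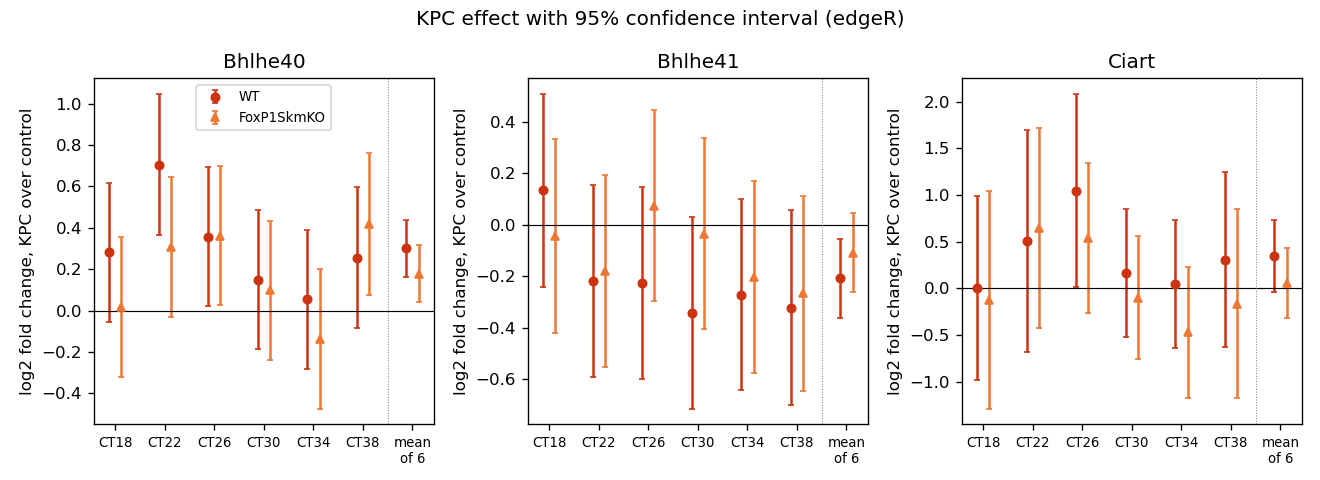
Log2 fold change of KPC over control (vertical axis, edgeR) at each circadian time and averaged over the 6 times, for each gene in WT (circles) and FoxP1SkmKO mice (triangles); bars are 95% confidence intervals and the vertical scale differs between panels. The averages are 0.30 and 0.18 for *Bhlhe40*, -0.21 and -0.11 for *Bhlhe41*, and 0.34 and 0.05 for *Ciart*, and only that of *Bhlhe40* in WT passed adjustment.

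*Ciart* did not pass for KPC in either genotype. The WT average was 0.34 ± 0.19 (-0.04 to 0.73, adjusted p = 0.396, edgeR), with the highest estimate at CT26, 1.04 ± 0.51 (adjusted p = 0.227), where the KPC mice measured 0.516 and 1.17 FPKM and the control mice 0.215 and 0.608. The pairs overlapped there, and the CT26 estimate ran from 0.35 to 1.95 with 1 mouse left out at a time. In FoxP1SkmKO mice the average was 0.05 ± 0.18 (-0.32 to 0.43, adjusted p = 0.944), and the genotypes differed by 0.29 ± 0.26 (-0.25 to 0.83, adjusted p = 0.885). The FoxP1SkmKO KPC mice measured 1.06 and 2.17 FPKM at CT26 and 2.45 and 3.26 at CT34, against 0.992 and 1.24 and 2.59 and 5.36 in FoxP1SkmKO control mice, so the estimate was above 0 at CT26 (0.54) and below it at CT34 (-0.47). Both signs turned on 1 mouse, with -0.085 at CT26 without FoxP1SkmKO KPC replicate 2 and 0.15 at CT34 without FoxP1SkmKO control replicate 1.

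At single times, 0 of the 36 contrasts of the 3 genes passed by edgeR, and 5 had an unadjusted p under 0.05. Of all 15637 genes, 633 to 3342 had an unadjusted p under 0.05 in a single-time contrast, the most at CT26 in WT mice. The share of all genes called was 0% at CT18, CT22, and CT34, 7.17% at CT26, 0.0064% at CT30, and 0.0256% at CT38 in WT mice. In FoxP1SkmKO mice it was 0.0192% at CT18, 0.0384% at CT26, 0.0064% at CT38, and 0% at the other times. These shares depended on the filter and the tool, since edgeR with no filter on low counts called 134 to 306 genes at each WT time other than CT26 and 87 to 596 at the FoxP1SkmKO times, and DESeq2 called 95 at CT18 in FoxP1SkmKO mice against 3. No member was among the genes called at CT26 in WT mice. The fit of each comparison's 4 libraries alone called 1 of the 36 by edgeR and 1 by DESeq2, in both *Bhlhe40* in WT mice at CT22. In that contrast these fits called 6 of 14005 genes by edgeR and 29 of 8954 by DESeq2. Per-time differences between the genotypes had adjusted p of 0.714 or more for all 3 genes, beside 0.345% of genes called at CT26, 0.0064% at CT22 and CT34, and 0% at the other times.

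The mean KPC effect by subjective night was compared with that by day. For *Bhlhe40* the night effect exceeded the day effect by 0.23 ± 0.14 on the log2 scale in WT mice (-0.05 to 0.50, adjusted p = 0.675, edgeR) and by 0.14 ± 0.14 in FoxP1SkmKO mice (-0.14 to 0.42, adjusted p = 0.733). For *Bhlhe41* the differences were 0.14 ± 0.15 and -0.11 ± 0.15, and for *Ciart* -0.15 ± 0.38 and 0.13 ± 0.37, with adjusted p of 0.837 or more. None passed, where 0% of all genes passed in WT (1314 at unadjusted p under 0.05, 44 by DESeq2) and 0.109% in FoxP1SkmKO mice.

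The basal level of the fitted curves gave the same contrast in FPKM. In WT mice *Bhlhe40* went from 22.6 ± 0.947 (SE, n = 12) in control to 27.3 ± 1.26 in KPC mice, a difference of 4.70 FPKM (95% interval 1.39 to 8.01, p = 0.0080, adjusted p = 0.376, F test). *Bhlhe41* went from 13.4 ± 0.320 to 11.5 ± 0.513, a difference of -1.87 (-3.14 to -0.599, n = 12 per group, p = 0.0063, adjusted p = 0.353). *Ciart* differed by 0.216 (-0.604 to 1.04). In FoxP1SkmKO mice the differences were 2.79 (-0.108 to 5.70) for *Bhlhe40*, -0.844 (-2.24 to 0.554) for *Bhlhe41*, and -0.157 (-1.12 to 0.807) for *Ciart*. Neither DEC gene passed adjustment, and 0.139% of all genes did in WT and 0% in FoxP1SkmKO mice.

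Because the DEC estimates ran in opposite directions, the ratio of *Bhlhe40* to *Bhlhe41* within each library was also described. It ran from 1.11 to 2.23 in WT control, with a median of 1.79, and from 1.73 to 3.64 in WT KPC mice, with a median of 2.44. The geometric mean over times was 1.67 in WT control and 2.37 in WT KPC mice, a fold of 1.42, and it was higher in KPC mice at 6 of 6 times. In FoxP1SkmKO mice it was 1.81 in control and 2.21 in KPC mice, a fold of 1.22, and it was also higher at 6 of 6 times. The lowest pair was WT control at CT22, at 1.11 and 1.38, where the WT KPC mice were at 2.15 and 2.57. The ratio was chosen after its values were seen and was not tested.

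**Figure D4:**
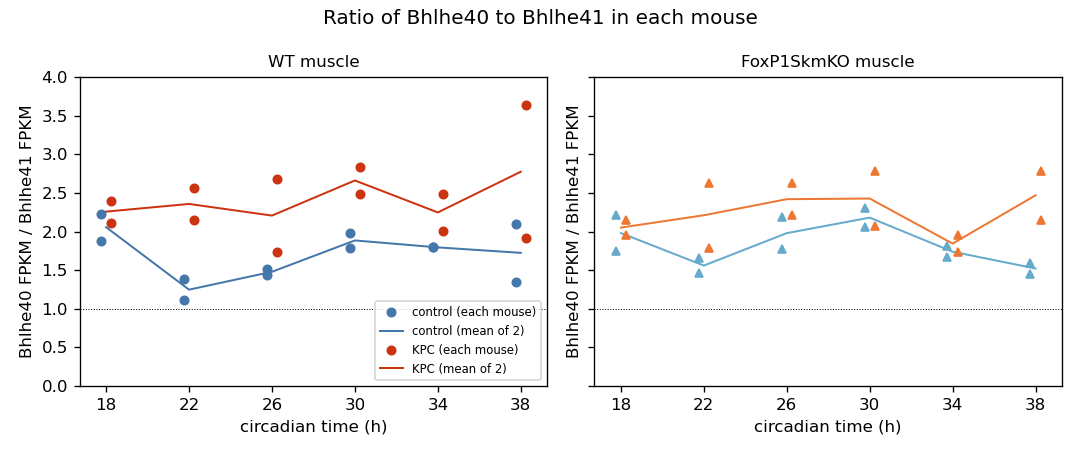
Ratio of *Bhlhe40* FPKM to *Bhlhe41* FPKM (vertical axis, dotted line at 1) in each mouse against circadian time in hours, in WT (left) and FoxP1SkmKO mice (right); lines join the means of 2 mice. The mean of the KPC mice lies above that of the control mice at all 6 times in both genotypes, and the single highest mouse, at 3.64, is a WT KPC mouse at CT38.

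No repressor passed for genotype alone. In control mice the FoxP1SkmKO minus WT log2 fold change over all times was 0.01 ± 0.068 for *Bhlhe40* (-0.13 to 0.15, adjusted p = 0.972, edgeR), -0.11 ± 0.075 for *Bhlhe41* (-0.26 to 0.05, adjusted p = 0.510), and 0.26 ± 0.19 for *Ciart* (-0.13 to 0.65, adjusted p = 0.529). In KPC mice it was -0.11 ± 0.068 (-0.25 to 0.02, adjusted p = 0.560), -0.01 ± 0.075 (-0.16 to 0.15, adjusted p = 0.992), and -0.03 ± 0.18 (-0.39 to 0.34, adjusted p = 0.980) in the same order. None of the 6 passed, while 3.44% of all genes passed in control and 0.32% in KPC mice. On the basal level of the fitted curves, the FoxP1SkmKO minus WT difference of *Bhlhe41* in control mice was -0.987 FPKM (-1.96 to -0.0150, n = 12 per group, p = 0.0469, adjusted p = 0.529, F test), and 0.477% of all genes passed there against 0% in KPC mice.

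Each repressor overlaps a gene on the other strand, and the sources do not say whether counting used strand, so reads of the pairs cannot be told apart where they overlap. *0610040F04Rik*, across from *Bhlhe40*, had 0 to 12 reads, and *Gm43909*, across from *Bhlhe41*, 5 to 34. These were at most 0.795% and 1.93% of the reads of the pair. *C920021L13Rik*, across from *Ciart*, had 24 to 59 reads, a median of 54.1% of the reads of the pair (11.8% to 79.7%). It did not pass for variation over the times in any group (adjusted p = 0.128 to 0.853, edgeR), with an unadjusted p of 0.0361 in WT control mice. The part of its reads in the *Ciart* values was not tested.

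Among the genes around them in the clock, 3 of 4 activators (*Arntl*, *Clock*, and *Npas2*) and 5 of 5 period and cryptochrome genes passed for variation over the times in each of the 4 groups. Of 4 tested nuclear receptors, *Nr1d1* and *Nr1d2* passed in all groups and *Rora* in 3, and of 9 output genes 7 passed in WT control, WT KPC, and FoxP1SkmKO control and 6 in FoxP1SkmKO KPC mice. For KPC averaged over times in WT mice, *Per1*, which encodes a period repressor, rose by 0.61 ± 0.14 (adjusted p = 0.0159, edgeR), the 1 call among 5 period and cryptochrome genes. The activators had 0 of 4 calls and a median log2 fold change of -0.04, the nuclear receptors 0 of 4 and 0.07, and the outputs 0 of 9 and 0.04, against a median of 0.00 over all genes. In FoxP1SkmKO mice none of these 4 lists had a call, with *Per1* at 0.32 ± 0.13 (adjusted p = 0.283, edgeR). The *Per1* effect was not shown to differ between the genotypes (WT minus FoxP1SkmKO 0.29 ± 0.19, adjusted p = 0.834). *Per1* was also higher in FoxP1SkmKO than in WT control mice, by 0.75 ± 0.13 (adjusted p = 0.0012, edgeR).

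As a description over the 24 group means of log2 CPM, which share the daily cycle, the correlation of *Bhlhe40* was 0.57 with *Bhlhe41* and 0.80 with *Ciart*, and that of *Bhlhe41* with *Ciart* was 0.67. Each was set beside 12631 genes with a mean log2 CPM above 0. The most alike for *Ciart* were *Ppat* (r = 0.93), *Fnip1* (0.92), *1810013L24Rik* (0.92), *Dbp* (0.92), and *Pdcd4* (0.90), and the most opposite *Pnpla3* (-0.95), *Lrrc30* (-0.94), and *Cdc42ep2* (-0.93). *Dbp* is a known clock output, so 1 of these 5 belongs to the lists. For *Bhlhe40* the most alike were *Prkcq* (0.84), *Crebrf* (0.83), *Cadm1* (0.82), *Fzd7* (0.81), and *Slc43a1* (0.80), and the most opposite *G0s2* (-0.83), *Palm* (-0.83), and *Ccdc134* (-0.81). For *Bhlhe41* those reported were *Ky* (0.88), *Gstt2* (0.86), *Hs3st5* (0.83), and *Ube2d1* (0.81), and *Banp* (-0.91), *Gm14319* (-0.91), and *Hspa1b* (-0.89). The 3 repressors shared none of these names. With *Arntl* the correlation was -0.82 for *Ciart*, -0.45 for *Bhlhe40*, and -0.41 for *Bhlhe41*, and with *Nr1d1* it was 0.44, 0.63, and 0.77, an order that runs the other way.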

How the data were processed

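RNA from tibialis anterior muscle was sequenced with 1 mouse per library. The authors aligned reads to mm39 and deposited counts per gene beside a table of FPKM over 56748 genes; the methods name STAR and HTSeq, the submitters' processing notes HISAT2 2.0.5 and DESeq2 1.20.0, so which made the counts is open. Strand of counting is not given in the sources used here. The count tables list only some genes: 28541 values were recovered from FPKM as whole reads (within 0.01 reads), at most 1064 reads per library. The deposited size-factor-normalized values and the authors' fold changes and p-values were not used.

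Groups followed the labels, and replicates are separate mice. Counts of all 48 libraries were fitted in edgeR 4.0.16 (R 4.3.3) with TMM scaling, filterByExpr, 24 groups, and the quasi-likelihood test, with Benjamini-Hochberg adjustment over 15637 genes and a threshold of 0.05. Sinusoids were fitted to FPKM (numpy 2.4.6, scipy 1.17.1) and the scripts tested on simulated data. Alternatives were no filter, DESeq2 size factors, DESeq2 1.42.0, limma 3.58.1 on log2(FPKM + 1) and log2(FPKM + 0.1), 4 libraries alone, a replicate block, and leaving out libraries or times. With 2 mice per group, libraries of 14480867 to 20787784 counts limit *Ciart* most, at 9 to 225 reads.

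The 3 members, the gene lists, and the tests were chosen with earlier results of these data known. The members, *Foxp1*, 17 clock genes, and the 5 most and 3 least alike genes were named. A gene that the rule also chose is not reported here. Names outside that rule, such as markers that passed, were chosen after their values were seen.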

Additional observations from a re-analysis of the deposited data

How the results depend on the processing

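In these values the cause was not tested unless the setting is itself fewer mice or times. With 2 mice per group and time, single-time estimates moved with each mouse. Of the replicate block fits, 130 kept direction and call; the exception was *Bhlhe41* over the times in FoxP1SkmKO KPC mice, with adjusted p = 0.0561 with the block and 0.0572 with DESeq2 size factors. Replicate numbers did not mark pairs (correlation of deviations -0.101 to 0.0854), and the block called 271 genes for KPC in WT mice against 280.

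With no filter, adjusted p was 1.8e-04 for *Bhlhe41* (-0.21, WT average), 0.0035 for *Bhlhe40* (0.18, FoxP1SkmKO average), and, over the times, 2.3e-05 for *Bhlhe40* and 6.5e-05 for *Bhlhe41* in WT KPC and 1.0e-06 for *Bhlhe41* in FoxP1SkmKO control mice, and 3 of 36 single-time contrasts passed. That fit called 87 to 1130 of 33218 genes in a single-time contrast. Exact permutation, whose p is not adjusted over genes, gave p = 0.0111 for *Bhlhe41* (-0.20, WT) and 0.0421 for *Bhlhe40* (0.16, FoxP1SkmKO). The unadjusted edgeR p-values of these 2 averages were 0.0092 and 0.0132. The fits on 4 libraries called 1 contrast each by edgeR and DESeq2, beside 0 to 345 genes per contrast by edgeR and 6 to 603 by DESeq2. *Bhlhe40* in WT averaged 0.22 without CT22 and 0.29 without CT26, neither past the threshold. Requiring adjusted p under 0.05 for a rhythm, the values were 0.120, 0.149, and 0.257 for *Bhlhe40* in WT control, FoxP1SkmKO control, and FoxP1SkmKO KPC mice, 0.157 for *Bhlhe41* in FoxP1SkmKO control mice, and 0.132, 0.0840, 0.138, and 0.169 for *Ciart*, which in WT KPC mice had 0.0352 among genes with mean FPKM of at least 1.

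Estimates near 0 changed sign. *Bhlhe40* in FoxP1SkmKO mice at CT18 was -0.000147 on 4 libraries, -0.00241 on log2(FPKM + 1), and -0.0032 on log2(FPKM + 0.1). *Ciart* in FoxP1SkmKO mice averaged -0.064 without CT22, -0.043 without CT26, and -0.0066 on log2(FPKM + 1), permutation included. Genotype in control mice gave -0.053, -0.019, and -0.00268 for *Bhlhe40* without CT22, CT26, and CT30; in KPC mice it gave 0.023 and 0.0082 for *Bhlhe41* without CT18 and CT38, and 0.12, 0.070, and 0.10 for *Ciart* without CT18, CT34, and CT38. On log2(FPKM + 0.1), KPC against control gave -0.078 for the *Ciart* amplitude in WT and 0.025 for its basal level in FoxP1SkmKO mice; on the log2(FPKM + 1) and log2(FPKM + 0.1) scales it gave -0.019 and -0.022 for the *Bhlhe40* amplitude in FoxP1SkmKO mice, and genotype in KPC mice gave basal differences of -0.0050 and -0.0059 for *Bhlhe41* and -0.00445 and -0.022 for *Ciart*.

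Leaving out 1 library at a time, the ranges in WT mice were -0.036 to 0.67 (CT26) and -0.12 to 0.21 (CT34) for *Bhlhe40*, -0.015 to 0.29 (CT18) and -0.77 to 0.018 (CT38) for *Bhlhe41*, and -0.62 to 0.47 (CT18), -0.019 to 0.86 (CT22), -0.064 to 0.43 (CT30), and -0.23 to 0.38 (CT34) for *Ciart*. In FoxP1SkmKO mice they were -0.23 to 0.22 (CT18) and -0.36 to 0.060 (CT34) for *Bhlhe40*, -0.36 to 0.22 (CT18), -0.21 to 0.12 (CT30), and -0.53 to 0.065 (CT34) for *Bhlhe41*, and -0.42 to 0.21 (CT18), -0.085 to 0.96 (CT26), -0.91 to 0.15 (CT34), and -0.72 to 0.26 (CT38) for *Ciart*. Averages ranged from 0.23 to 0.35 for *Bhlhe40* and -0.28 to -0.15 for *Bhlhe41* in WT and -0.050 to 0.16 for *Ciart* in FoxP1SkmKO mice. Genotype effects ranged from -0.024 to 0.053 for *Bhlhe40* in control mice, and from -0.063 to 0.068 for *Bhlhe41* and -0.13 to 0.088 for *Ciart* in KPC mice. Night minus day ranged from -0.45 to 0.087 for *Ciart* in WT, and from -0.21 to 0.0025 for *Bhlhe41* and -0.077 to 0.34 for *Ciart* in FoxP1SkmKO mice. Adjusted p over the times ranged from 0.0194 to 0.0882 for *Bhlhe41* in WT control, 0.0187 to 0.330 for *Bhlhe40* and 0.0207 to 0.4999 for *Bhlhe41* in WT KPC, and 0.0166 to 0.199 for *Bhlhe41* in FoxP1SkmKO KPC mice, and 0 to 1 single-time contrast passed. Rhythm p ranged from 0.0016 to 0.0121 for *Bhlhe40* and 0.0017 to 0.0136 for *Bhlhe41* in FoxP1SkmKO control, and 6.4e-04 to 0.0111 and 0.0093 to 0.104 in FoxP1SkmKO KPC mice. Basal differences in FPKM ranged from -0.32 to 0.025 for *Ciart* (KPC, FoxP1SkmKO), -0.54 to 0.65 for *Bhlhe40* (genotype, control), and -0.39 to 0.27 for *Bhlhe41* and -0.14 to 0.19 for *Ciart* (genotype, KPC).

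Over all genes, no filter called 794 for KPC in WT and 527 in FoxP1SkmKO mice against 280 and 67; log2(FPKM + 1) called 166 and 22, log2(FPKM + 0.1) 173 and 20, and DESeq2 353 and 159. The WT CT26 contrast called 345 by edgeR and 603 by DESeq2 on 4 libraries against 1121, and 7 DESeq2 adjusted p that were NA stayed out. For the difference between genotypes in the averaged KPC effect, no filter called 104 against 0. For genotype, no filter called 933 and 470 against 538 and 50, and DESeq2 108 in KPC mice. Night minus day called 172 and 498 with no filter and 44 and 90 by DESeq2 against 0 and 17.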

Other observations

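Other gene lists that bear on the DEC proteins were counted in the same edgeR fit, with adjusted p under 0.05 over all genes. Of all genes, 1.79% passed for the averaged KPC effect in WT and 0.428% in FoxP1SkmKO mice. For variation over the times the shares were 18.7% in WT control, 11% in WT KPC, 6.4% in FoxP1SkmKO control, and 5.99% in FoxP1SkmKO KPC mice. Of the 6 tested of 10 bHLH-Orange relatives, the HES and HEY repressors that share the domain of DEC1 and DEC2, 0 passed for KPC in WT and 0 in FoxP1SkmKO mice, with median log2 fold changes of -0.04 and -0.10. Of the same 6 genes, *Hey1* and *Heyl* passed for variation over the times in WT KPC mice and none did in the other 3 groups. Of 15 hypoxia response genes, 0 passed for KPC in either genotype, with medians of 0.07 in WT and -0.02 in FoxP1SkmKO mice. The part of hypoxia in the *Bhlhe40* values was not tested. Over the times, 2 of the 15 passed in WT control, 4 in WT KPC, 1 in FoxP1SkmKO control, and 2 in FoxP1SkmKO KPC mice. *Pfkfb3*, a regulator of glycolysis, was among them in all 4 groups.

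Of 14 tested glucocorticoid response genes, *Klf15* and *Per1* rose with KPC in WT mice and 0 passed in FoxP1SkmKO mice. The medians of the list were 0.15 and 0.20 against 0.00 over all genes, and 0 of the 14 passed for the difference between the genotypes. *Cdkn1a*, *Pdk4*, and *Per1* were higher in FoxP1SkmKO than in WT control mice. Over the times, 7 of the 14 passed in WT control, 6 in WT KPC, 6 in FoxP1SkmKO control, and 5 in FoxP1SkmKO KPC mice. The steroid targets *Fkbp5*, *Tsc22d3*, *Per1*, and *Klf9* were among them in all 4 groups. *Per1* and *Klf9* also stand in the clock lists. Of 14 tested myogenic and E protein genes, 0 passed for KPC in either genotype, with medians of -0.01 and -0.01. Over the times, 4 of these 14 passed in WT control, 4 in WT KPC, 3 in FoxP1SkmKO control, and 2 in FoxP1SkmKO KPC mice. *Myod1*, the myogenic regulator, was among them in all 4 groups. *Id1* rose in FoxP1SkmKO control mice against WT, and *Myf6* rose in FoxP1SkmKO KPC mice against WT KPC mice. Of 6 tested genes of clock protein turnover, 0 passed for KPC, with medians of -0.01 in WT and 0.03 in FoxP1SkmKO mice.

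Among markers of other cell types, 0 of 9 macrophage markers passed for the averaged KPC effect in either genotype, with medians of 0.24 in WT and 0.15 in FoxP1SkmKO mice. The fibroblast medians were -0.48 and -0.69, with *Lum* lower in FoxP1SkmKO mice. The 3 liver markers varied over the times in FoxP1SkmKO KPC mice, where their sum reached 301 CPM.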
